A study of Mus musculus with 4 samples.

Results

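The cells described here are hormone-sensing luminal cells of the mouse mammary gland in whose droplets no transcript of Pgr, the progesterone receptor gene, was counted. They were chosen from deposited single-cell counts by a score. Each barcode, the tag that marks 1 droplet, received 3 scores, the mean standardised expression of 8 genes each for basal, progenitor and hormone-sensing cells. The hormone-sensing score used Prlr, Esr1, Pgr, Areg, Cited1, Foxa1, Fxyd2 and Ly6a. A barcode was hormone-sensing when that score was above 0.3 and at least 0.5 above both other scores, with fewer than 4 unique molecular identifiers (UMIs, counts of single captured transcripts) of 5 cycling genes. Of 36884 barcodes in the series, 9826 met these conditions and 2253 of them, 6.11% of all, had 0 Pgr UMIs. These 2253 are called Pgr-negative hormone-sensing barcodes, and the other 7573 hormone-sensing barcodes Pgr-positive. Basal and progenitor barcodes, 10927 and 10889 of them, were chosen in the same way from their own scores.

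The series set Zeb1 MSKO mice against controls. Zeb1 encodes a zinc-finger repressor of epithelial genes, and the design sets mammary cells of both genotypes side by side at 2 ages. There were 4 libraries, all from sorted mammary gland cells of C57BL/B6 mice: Zeb1 MSKO at 8 weeks, Zeb1 MSKO at 9 weeks, control at 8 weeks and control at 9 weeks. The labels do not expand MSKO, do not say which part of Zeb1 was deleted, which promoter or cell type the deletion used or which markers were used to sort, and do not say whether mice were pooled. They held 231, 1060, 524 and 438 Pgr-negative hormone-sensing barcodes in that order, and 4 values below follow it unless another order is stated.

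Hormone-sensing luminal cells carry the receptors for estrogen, progesterone and prolactin and pass hormone signals on to neighbouring cells. Estrogen receptor alpha (Esr1) with the pioneer factor Foxa1 drives the EGF receptor ligand amphiregulin (Areg) and Pgr itself. Progesterone acting on Pgr-positive cells induces the paracrine signals RANKL (Tnfsf11) and Wnt4. Hormone-sensing cells lie in the luminal layer beside secretory progenitors, which make milk proteins after differentiation, while basal cells around them contract under oxytocin.

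The label was checked against markers first. Of the 2253 barcodes, 2169 carried more UMIs of 6 luminal markers (Krt8, Krt18, Krt19, Epcam, Cldn3 and Cldn4) than of fibroblast, endothelial, leukocyte and pericyte markers together, and 84 (3.73%) did not. The 84 were 36, 7, 38 and 3 barcodes, which is 15.6%, 0.660%, 7.25% and 0.685% of the Pgr-negative barcodes of the 4 libraries. Fibroblast markers led in 77 of them, endothelial markers in 5 and leukocyte markers in 2. Their median was 5 luminal and 165 fibroblast marker UMIs, against 247 and 0 in the other 2169. Prlr, the prolactin receptor gene, had a UMI in 22.6% of the 84 and in 99.9% of the 2169. Cited1, a transcriptional co-activator of the estrogen receptor, had one in 21.4% and 85.3%. Decorin (Dcn), a matrix proteoglycan of fibroblasts, had one in 92.9% and 12.4%. Within the score, the 84 had mean standardised values of 2.60 for Ly6a, 3.33 for Esr1 and -0.55 for Prlr. The label thus did not hold for these 84 barcodes, and the main counts below are also given for the 2169, called epithelial Pgr-negative barcodes. That split was chosen after the data were seen.

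**Figure D1:**
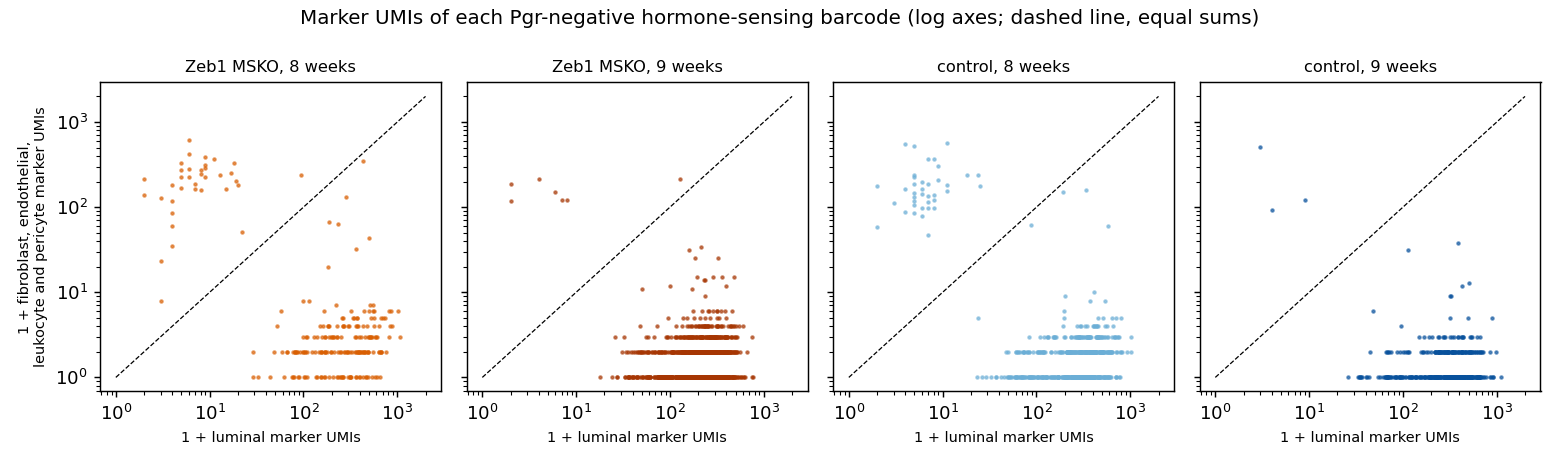
Each point is 1 Pgr-negative hormone-sensing barcode, plotted by its luminal marker UMIs (x, plus 1) and its fibroblast, endothelial, leukocyte and pericyte marker UMIs (y, plus 1) on log axes, with 1 panel per library and a dashed line at equal sums. The 36, 7, 38 and 3 barcodes above the line form a group of their own, largest at 8 weeks.

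Sequencing gave 80853204, 122122443, 103331868 and 87797283 UMIs in the 4 libraries. Pgr-negative barcodes held a median of 10711, 14867, 11781 and 13479 UMIs, against 15668, 18139, 14465 and 15545 in Pgr-positive barcodes, so they were the shallower class in every library. Doublet calls took 2.86% to 5.19% of Pgr-negative and 7.20% to 8.59% of Pgr-positive barcodes. Of 36194 barcode sequences, 682 occurred in 2 or more libraries, and 2 of them marked Pgr-negative barcodes in 2 libraries. Zeb1 itself gave 19, 11, 20 and 1 UMIs in Pgr-negative barcodes, and 0, 0.325, 0.18 and 0 CPM (UMIs scaled to a common total per library and class) in the epithelial ones. At these counts, and with reads from the 3′ end only, Zeb1 does not check the genotype labels. The Zeb1 MSKO library at 9 weeks stood apart from the other 3 in many hormone-sensing genes, as the values below show.

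Among the receptors and regulators of the score, which the rule used and which are given as a description, Prlr was at 1480.2 and 1657 CPM in the Zeb1 MSKO libraries and 1772 and 2542 CPM in the control libraries. The lowest and highest library differed less than 2-fold. Esr1 was at 55.6 and 47.4 CPM in the Zeb1 MSKO libraries and 48.8 and 42.9 CPM in the control libraries. With the epithelial barcodes, Esr1 had a mean ± SD of 44.8 ± 2.98 CPM in the Zeb1 MSKO libraries and 42.5 ± 0.345 CPM in the control libraries. Foxa1 was at 121 and 94.4 CPM in the Zeb1 MSKO libraries and 87.2 and 74.0 CPM in the control libraries. The Foxa1 values of both Zeb1 MSKO libraries lay above those of both controls. This was so for 10.7% of the 10991 genes tested between genotypes, so it does not single out Foxa1. Cited1 was at 344 and 1573 CPM in the Zeb1 MSKO libraries and 516 and 430.4 CPM in the control libraries. The Zeb1 MSKO library at 9 weeks was high and the other 3 lay close together.

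Fxyd2, which encodes the gamma subunit of the sodium pump, was at 961 and 110.2 CPM in the Zeb1 MSKO libraries and 1053 and 1877 CPM in the control libraries. Here the Zeb1 MSKO library at 9 weeks was the low one. Ly6a (Sca-1), a surface protein anchored by a lipid, was at 812 and 1165 CPM in the Zeb1 MSKO libraries and 922 and 534 CPM in the control libraries with all Pgr-negative barcodes and at 440.2 and 1155 CPM in the Zeb1 MSKO libraries and 766 and 524 CPM in the control libraries with the epithelial ones. Areg was at 3436 and 1734 CPM in the Zeb1 MSKO libraries and 4046 and 1215 CPM in the control libraries, with both libraries of 8 weeks above both of 9 weeks. Pgr was 0 by the rule, and at 184 and 116 CPM in the Zeb1 MSKO libraries and 184 and 166 CPM in the control libraries in Pgr-positive barcodes.

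**Figure D2:**
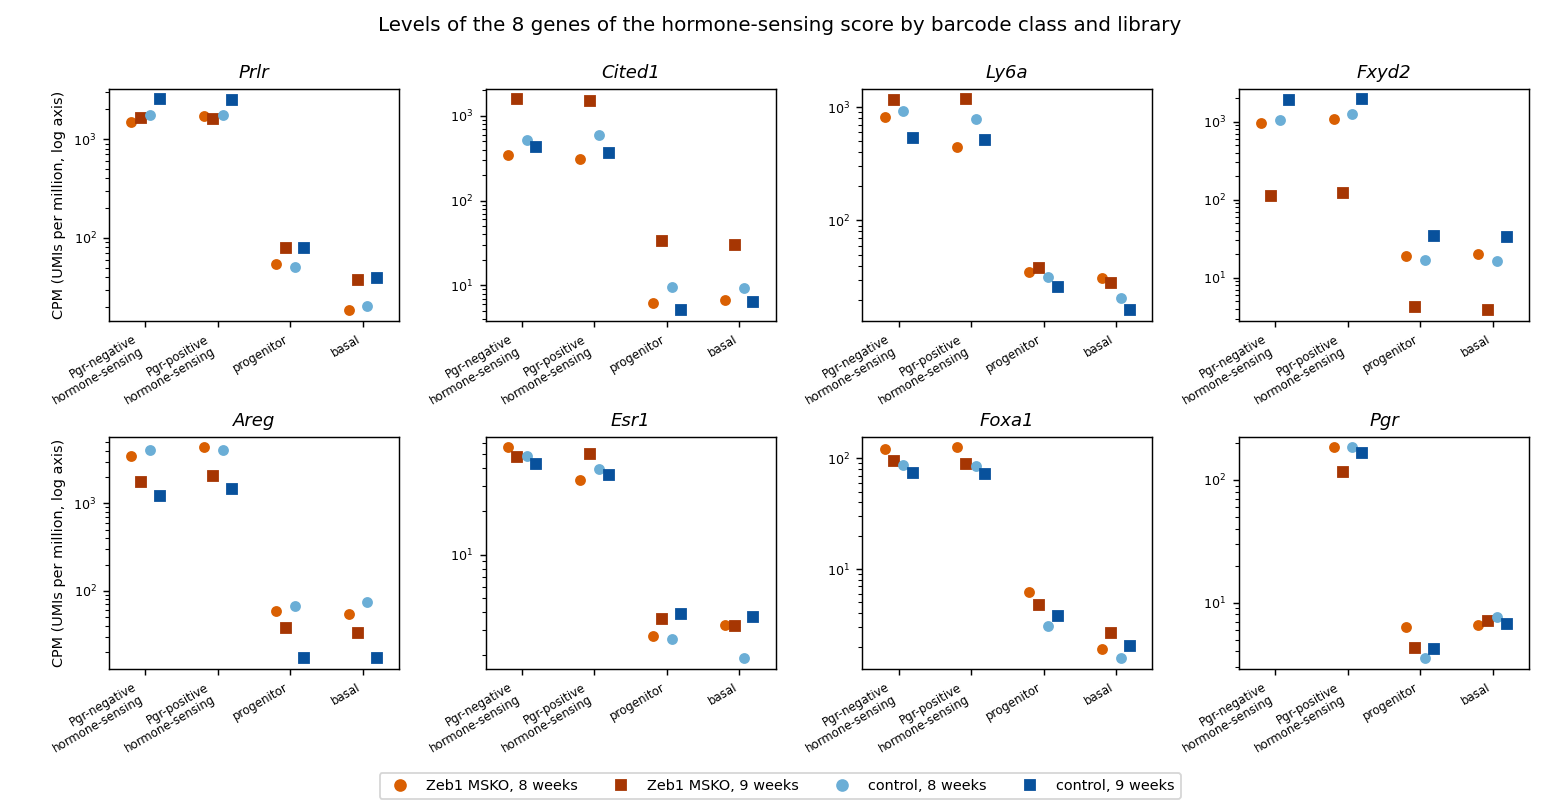
Levels in CPM (log axis) of the 8 score genes in Pgr-negative and Pgr-positive hormone-sensing, progenitor and basal barcodes, with 1 point per library, orange for Zeb1 MSKO and blue for control, circles for 8 and squares for 9 weeks. Pgr-negative and Pgr-positive points lie close to each other and above progenitor and basal points; Pgr is 0 in Pgr-negative barcodes and not drawn, and Fxyd2 of the Zeb1 MSKO library at 9 weeks lies far below the rest in all 4 classes.

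The Pgr-negative barcodes were not uniform. The median barcode carried UMIs of 5 of the 7 score genes other than Pgr in every library, and 11.7%, 8.30%, 14.3% and 11.6% carried all 7, while the median basal barcode carried 1, 1, 1 and 0. Prlr had a UMI in 87.9%, 99.4%, 94.1% and 99.3% of Pgr-negative barcodes, against 10.5%, 16.0%, 10.6% and 15.8% of basal barcodes, which should lack it and had medians of 5624, 7819, 7705 and 8052 UMIs. Over all libraries, Prlr had a UMI in 99.9% of the 2169 epithelial Pgr-negative barcodes and in 22.6% of the other 84. The lower Prlr shares at 8 weeks thus go with the larger part of these 84 there. Fxyd2 had a UMI in 75.8%, 34.2%, 73.5% and 90.0% of all Pgr-negative barcodes, against 12%, 2.93%, 11.8% and 21.4% of basal barcodes. Thinned to 2500 UMIs per barcode, the Fxyd2 shares were 58.2%, 15.2%, 54.3% and 77.8%, with the order of the libraries kept. In the Zeb1 MSKO library at 9 weeks, the tenth of barcodes richest in Fxyd2 held 72.9% of its Fxyd2 UMIs, against 35.9% in the control library at 9 weeks.

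At the limits of the rule, 75 barcodes lay within 0.05 above the score limit of 0.3 and 52 within 0.05 below it. Prlr had a UMI in 73.3% of the band above the limit and in 76.9% of the band below it, and non-epithelial markers led in 28% and 23.1%. At the margin of 0.5 there were 10 barcodes just inside and 8 just outside. On the Pgr side, 2517 hormone-sensing barcodes had 1 Pgr UMI and 5056 had more. The median UMI count was 13414 in barcodes with 0 Pgr UMIs, 14697 with 1 and 16306 with 2 or more.

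Hormone-sensing genes that the score left out were examined next. The RANKL gene Tnfsf11 gave 3, 3, 9 and 0 UMIs, in 0.866%, 0.0943%, 0.382% and 0% of Pgr-negative barcodes, where a count of 0 in 438 barcodes allows a share of up to 0.685%. This limits barcodes with a UMI, not cells that express the gene. A single barcode held 8 of the 9 UMIs of the control library at 8 weeks. In Pgr-positive barcodes, which were deeper, the shares were 2.47%, 0.389%, 1.21% and 0.0505%. Wnt4 was at 85.0 and 70.5 CPM in the Zeb1 MSKO libraries and 115 and 58.4 CPM in the control libraries, within a 2-fold range. Calca, which encodes calcitonin and CGRP, was at 305 and 19.8 CPM in the Zeb1 MSKO libraries and 37.5 and 6.55 CPM in the control libraries. It had a UMI in 43.7%, 6.79%, 13.4% and 2.28% of the barcodes, so that the Zeb1 MSKO library at 8 weeks was the high one. Tph1, the enzyme that starts serotonin synthesis, was at 1059 and 232 CPM in the Zeb1 MSKO libraries and 147 and 239.7 CPM in the control libraries and again highest there. Prom1 (CD133), a membrane protein used to sort hormone-sensing cells, was at 209 and 42.9 CPM in the Zeb1 MSKO libraries and 128 and 277 CPM in the control libraries, lowest in the Zeb1 MSKO library at 9 weeks. Stc2, which encodes a secreted glycoprotein, was at 261 and 251 CPM in the Zeb1 MSKO libraries and 369.8 and 354 CPM in the control libraries. The luminal factors Gata3, Tbx3 and Spdef ranged over 239 to 463, 100 to 164 and 18.5 to 22.5 CPM across the 4 libraries.

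Against basal barcodes, Pgr-negative barcodes carried more luminal and hormone-sensing transcripts and fewer contractile ones. The rule used this contrast, so the values are a description without a test. Of 7347 genes at 10 CPM or more, 740 (10.1%) were at least 2-fold higher and 835 (11.4%) at least 2-fold lower in all 4 libraries, and 751 (10.3%) and 947 (13%) of 7305 with the epithelial barcodes. The numbers that follow are log2 ratios of the epithelial Pgr-negative barcodes to basal barcodes as the mean ± SD of 4 libraries. Of 14 luminal keratin and junction genes, 11 were at least 2-fold higher, with a median of 3.85 over the list against 0.03 over all genes. They included Krt18 (4.18 ± 0.23) and Cldn3 (3.78 ± 0.11), a tight-junction claudin. All 13 contractile genes measured were at least 2-fold lower, with a median of -6.59, among them the actin-binding Tagln (-7.42 ± 0.93), the smooth muscle actin Actg2 (-6.96 ± 1.13) and the myosin kinase Mylk (-6.84 ± 0.63). Of 17 Wnt pathway genes, 11 were at least 2-fold lower, with a median of -3.44, such as the receptor Fzd7 (-3.66 ± 0.86) and the secreted antagonist Sfrp1 (-5.70 ± 0.94), while the ligand Wnt4 was higher (3.90 ± 0.63).

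By the size of the ratio, the leading genes above basal barcodes were Nrxn3, a synaptic adhesion protein (6.24 ± 0.78), Fgb, the fibrinogen beta chain (5.98 ± 0.42), Ido1, which degrades tryptophan (5.87 ± 0.77), Tspan1, a tetraspanin (5.86 ± 0.44), Aqp5, a water channel (5.81 ± 0.35), and Cxcl15, a chemokine (5.81 ± 0.49). Ido1 was at 746 and 41.5 CPM in the Zeb1 MSKO libraries and 444 and 1784 CPM in the control libraries, and Nrxn3 at 271 and 16.6 CPM in the Zeb1 MSKO libraries and 288 and 365 CPM in the control libraries. Cxcl15 was at 979 and 116 CPM in the Zeb1 MSKO libraries and 781 and 736 CPM in the control libraries. In these 3 genes the Zeb1 MSKO library at 9 weeks was the lowest of the 4.

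Against progenitor barcodes, 495 of 7204 genes (6.87%) were at least 2-fold higher and 465 (6.45%) at least 2-fold lower in all 4 libraries, and 469 (6.59%) and 512 (7.19%) of 7120 with the epithelial barcodes. The rule used this contrast as well, with milk and secretory genes in the progenitor score, so these values too are a description. Of 15 milk and secretory genes, 12 were at least 2-fold lower, with a median log2 ratio of -5.21, and the 4 progenitor markers outside the rule were all at least 2-fold lower, with a median of -5.27. Lcn2, an iron-chelating lipocalin, was at 107 and 117 CPM in the Zeb1 MSKO libraries and 59.0 and 76.6 CPM in the control libraries, against 2169 and 5025 CPM and 3358 and 4354 CPM in progenitor barcodes of the same libraries. The milk fat protein gene Btn1a1 (-5.80 ± 0.20) and the mucin Muc15 (-6.35 ± 0.27) were lower as well, and so was the homeobox factor Barx2 (-5.79 ± 0.20). Of 7 hormone-sensing markers outside the rule, 6 were at least 2-fold higher, with a median of 3.66 against 0.03 over all genes. Agtr1a, the angiotensin receptor, stood at 5.88 ± 0.42. Of 15 luminal keratin and junction genes, 3 were at least 2-fold higher and 1 lower, with a median of 0.18.

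Against Pgr-positive barcodes, no gene but Pgr was 2-fold apart in all 4 libraries once barcodes led by non-epithelial markers were left out. With all Pgr-negative barcodes, 42 of 6981 genes (0.602%) were at least 2-fold higher in all 4 libraries and 1 (0.0143%), Pgr, at least 2-fold lower. The genes with the largest ratios were fibroblast genes, such as Clec3b, Lum, Col1a2 and Col3a1, and the summed fibroblast markers were at 3159, 80.8, 1228 and 134 CPM, against 326, 22.4, 88.2 and 21.8 CPM in the epithelial barcodes. With the epithelial barcodes of both classes, 0 of 6886 genes (0.0%) were 2-fold higher and 1 (0.0145%), Pgr, was lower. Log2 ratios to Pgr-positive barcodes had a median of -0.01 over all genes. Those of the score genes were 0.03 ± 0.06 for Prlr, 0.16 ± 0.20 for Esr1, 0.08 ± 0.03 for Foxa1, 0.12 ± 0.20 for Cited1, -0.11 ± 0.09 for Fxyd2, 0.03 ± 0.07 for Ly6a and -0.15 ± 0.14 for Areg. Each is the mean ± SD of 4 libraries, and no test was made since Pgr chose the barcodes. Pgr is also a gene of the score, so a barcode without a Pgr UMI met the score limit through the other score genes. The ratios of the score genes are therefore set in part by the rule, and they do not show how alike the classes are.

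Smaller differences ran the same way in all 4 libraries. They were higher for 482 genes (7.0%) and lower for 770 (11.2%) of 6886 in epithelial Pgr-negative barcodes. The 3 progenitor markers measured were all lower, with a median log2 ratio of -0.42, among them Lcn2 (-0.53 ± 0.24), and 5 of 8 contractile genes were lower, including Tagln (-0.51 ± 0.31). Chil1, a chitinase-like secreted protein, stood at -0.81 ± 0.37, and the chemokine gene Cxcl2 at -1.04 ± 0.69. The rule asks for a hormone-sensing score at least 0.5 above the basal and progenitor scores. That score had medians of 0.808, 0.854, 0.913 and 0.788 in all Pgr-negative barcodes, against 1.17, 1.15, 1.25 and 1.08 in Pgr-positive ones. Lower progenitor and contractile transcripts can therefore be set in part by the rule. Pgr-negative barcodes also had fewer called doublets and fewer UMIs, as given above, and the part of both in these ratios was not tested. Of 9 MHC antigen presentation genes, 4 were higher and 0 lower, for instance the class I gene H2-K1 (0.12 ± 0.06). Wfdc12, a protease inhibitor of the whey acidic protein family, stood at 1.15 ± 0.64, from 13, 39, 3 and 5 Pgr-negative barcodes with a UMI. Of the 7 hormone-sensing markers outside the rule, 0 differed the same way in all 4 libraries.

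The share of hormone-sensing barcodes without a Pgr UMI was 18.0% and 31.4% in the Zeb1 MSKO libraries and 19.1% and 18.1% in the control libraries. The means were 24.7% ± 9.47 in Zeb1 MSKO and 18.6% ± 0.690 in control (SD, n = 2 each). The exact two-sided permutation test gave p = 1, and with 2 against 2 libraries it cannot go below 0.333. The Zeb1 MSKO library at 9 weeks stood apart from the other 3. Of all non-cycling barcodes of the 3 epithelial classes, Pgr-negative hormone-sensing ones made up 3.04% and 12% in Zeb1 MSKO and 6.48% and 6.17% in control (means 7.50% ± 6.30 and 6.32% ± 0.222, n = 2 each; exact permutation p = 1). This share also follows from how many basal barcodes each library held, 4682 and 2391 in Zeb1 MSKO and 1757 and 2097 in control, and a sort can set it.

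Depth bore directly on the Pgr call. Among hormone-sensing barcodes under 8000 UMIs, 35.6% and 57.7% in Zeb1 MSKO and 38.2% and 42.7% in control had 0 Pgr UMIs, and among those with 20000 UMIs or more, 8.41% and 16.2% in Zeb1 MSKO and 5.91% and 9.12% in control. The share was lower at each greater depth band in each library. At matched depth the Zeb1 MSKO library at 9 weeks stayed above the others, and the Pgr level over all its hormone-sensing barcodes was 85.7 CPM, against 158 CPM in Zeb1 MSKO at 8 weeks and 156 and 141 CPM in the controls. Read in 2500 UMIs per barcode, 66.9% and 80.9% in Zeb1 MSKO and 68.0% and 70.3% in control had 0 Pgr UMIs. A count of 0 Pgr UMIs therefore does not show that a cell lacked Pgr transcripts.

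**Figure D3:**
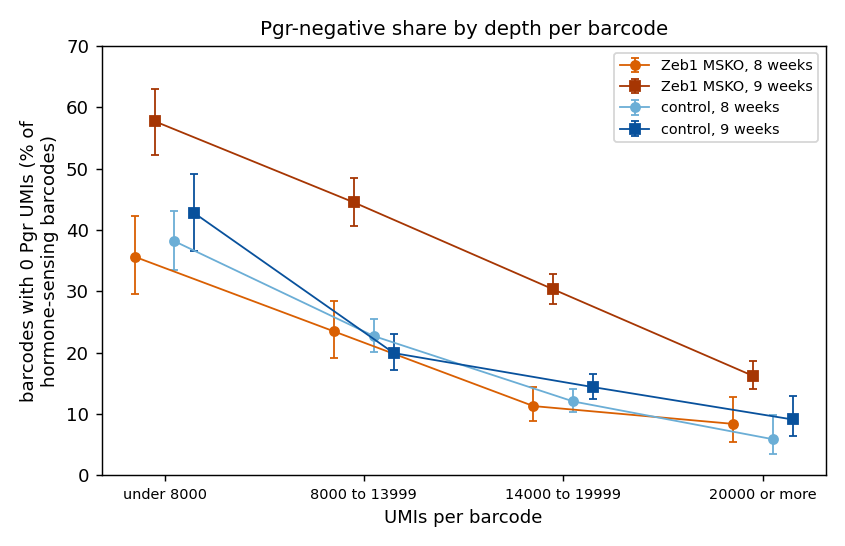
Share of non-cycling hormone-sensing barcodes with 0 Pgr UMIs (y, %) in 4 bands of UMIs per barcode (x), with 1 line per library and bars for Wilson 95% intervals, which cover counting error only. The share is lower at greater depth in all 4 libraries, and Zeb1 MSKO at 9 weeks lies above the other 3 in each band, at 57.7% under 8000 UMIs and 16.2% at 20000 or more.

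Between genotypes, edgeR's quasi-likelihood test on counts summed per library called 1 of 10991 genes in Pgr-negative barcodes (0.0091%), Sbp, which encodes a spermine-binding protein. Sbp (mm10 chromosome 17, 23941672 to 23945607, plus strand, protein coding) was at 0.762 and 0.583 CPM in the Zeb1 MSKO libraries and 152 and 132 CPM in the control libraries, with no overlap of the groups (log2 fold change -7.71, SE 0.30, edgeR adjusted p = 0.0427). Its UMIs came from few barcodes, 1 of 231 and 3 of 1060 in Zeb1 MSKO and 22 of 524 and 31 of 438 in control. A single barcode held 719 of the 889 UMIs of the control library at 8 weeks and another 341 of the 727 at 9 weeks. In Pgr-positive barcodes, Sbp was at 0.371 and 0.812 CPM in the Zeb1 MSKO libraries and 65.9 and 192 CPM in the control libraries. The call was lost without any 1 of the 4 libraries (edgeR adjusted p = 0.154 to 0.880), with low-quality barcodes and doublets left out (edgeR adjusted p = 1) and with at least 8000 UMIs per barcode (edgeR adjusted p = 0.624). It held with the epithelial barcodes, 1 of 10599 genes (0.00943%; edgeR adjusted p = 0.0106), also without any 1 library. A fit without 1 library sets 1 against 2, and takes the lone library to vary like the other group. Without adjustment 256 genes had p under 0.05. The groups did not overlap for 1172 genes that were higher (10.7%) and 1946 that were lower (17.7%) in Zeb1 MSKO.

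DESeq2, run as an alternative, called 12 of the 17033 genes with any count (0.0705%), 5 higher (0.0294%) and 7 lower (0.0411%). This base is wider than edgeR's, which passed a filter on low counts, so the shares of the 2 tools do not compare. With the epithelial barcodes DESeq2 called 15 of 16626 (0.0902%), 7 higher (0.0421%) and 8 lower (0.0481%). Of these edgeR called only Sbp. For the other genes given here and in the next paragraph, fold changes and SEs are from edgeR, and adjusted p-values from DESeq2. Hepacam2, an adhesion protein of the immunoglobulin family (chromosome 6, 3457096 to 3498298, minus strand), was at 28.6 and 66.6 CPM in the Zeb1 MSKO libraries and 3.08 and 4.36 CPM in the control libraries (log2 fold change 3.76, SE 0.56; DESeq2 adjusted p = 3.24e-06). With the epithelial barcodes, its edgeR adjusted p was 0.923. Hepacam2 had a UMI in 23.8% and 49.4% of Zeb1 MSKO barcodes and in 3.05% and 5.25% of control barcodes, so this difference did not rest on single barcodes. In basal barcodes it had one in at most 0.962%. Wfdc12 (chromosome 2, 164189231 to 164190608, minus strand) was at 51.4 and 38.0 CPM in the Zeb1 MSKO libraries and 8.72 and 7.64 CPM in the control libraries (log2 fold change 2.50, SE 0.25; DESeq2 adjusted p = 3.79e-06), from 13 and 39 barcodes in Zeb1 MSKO and 3 and 5 in control, and the richest barcode held 63.0% and 21.3% of these UMIs in Zeb1 MSKO and 92.2% and 69.0% in control. Rps26-ps1, a pseudogene of a ribosomal protein whose reads may be split with its near-identical copies, was at 289 and 311 CPM in the Zeb1 MSKO libraries and 94.9 and 68.0 CPM in the control libraries, and at 268 and 211 CPM in the Zeb1 MSKO libraries and 94.9 and 58.5 CPM in the control libraries in basal barcodes.

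Lower in Zeb1 MSKO by DESeq2 were Cdh13, an atypical cadherin without a transmembrane part, at 5.33 and 4.73 CPM in the Zeb1 MSKO libraries and 29.1 and 73.8 CPM in the control libraries (log2 fold change -3.31, SE 0.55; DESeq2 adjusted p = 6.38e-05). Ly6d, a lipid-anchored protein of the Ly6 family (chromosome 15, 74762056 to 74763620, minus strand), was at 1751 and 1105 CPM in the Zeb1 MSKO libraries and 4209.8 and 4299.9 CPM in the control libraries (log2 fold change -1.52, SE 0.29; DESeq2 adjusted p = 0.000966), with a UMI in 79.2% to 98.4% of barcodes of the 4 libraries. Tm4sf1, a membrane protein of the tetraspanin type, was at 377 and 206 CPM in the Zeb1 MSKO libraries and 989 and 1060 CPM in the control libraries (log2 fold change -1.76, SE 0.34; DESeq2 adjusted p = 0.000966). The uroplakin gene Upk2, which encodes a membrane protein of the bladder lining, was at 55.6 and 38.3 CPM in the Zeb1 MSKO libraries and 114 and 140.2 CPM in the control libraries, and the lipoxygenase gene Alox15 at 13 and 7.39 CPM in the Zeb1 MSKO libraries and 47.2 and 32.6 CPM in the control libraries. In each of these 5 genes both Zeb1 MSKO libraries lay below both controls. This was so for 17.7% of the 10991 genes tested between genotypes, so it does not single them out.

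Apart from Sbp, the largest fold changes that had 1 sign at both ages did not pass (edgeR adjusted p = 1 for each gene that follows). Sftpd, a surfactant collectin of the airways, was at 2.67 and 377 CPM in the Zeb1 MSKO libraries and 0.513 and 3.64 CPM in the control libraries, and 75% of the Pgr-negative barcodes of Zeb1 MSKO at 9 weeks had a UMI. Wfdc3, of the same protein family as Wfdc12, was at 8.00 and 376 CPM in the Zeb1 MSKO libraries and 2.57 and 12 CPM in the control libraries. The Zeb1 MSKO library at 9 weeks alone was high for both genes. Emb, Ifit1, Smoc2 and Igf1 were high in Zeb1 MSKO at 8 weeks only, for example 36.2 and 0.713 CPM in the Zeb1 MSKO libraries and 4.62 and 0 CPM in the control libraries for the growth factor Igf1. With barcodes led by non-epithelial markers left out, 36 in that library and 38 in control at 8 weeks, Emb was at 21.1 and 1.82 CPM in the Zeb1 MSKO libraries and 1.08 and 0.914 CPM in the control libraries, and Ifit1, Smoc2 and Igf1 were at most at 3.79, 1.29 and 3.45 CPM in any library. On the lower side, the control library at 8 weeks was the high one for several genes. Sprr2f, a cornified envelope protein that DESeq2 called, was at 0 and 0.778 CPM in the Zeb1 MSKO libraries and 41.1 and 6.18 CPM in the control libraries. The keratin gene Krt4 was at 4.57 and 7.71 CPM in the Zeb1 MSKO libraries and 67.6 and 9.27 CPM in the control libraries, the protease gene Prss22 at 23.6 and 13.2 CPM in the Zeb1 MSKO libraries and 151 and 31.1 CPM in the control libraries and the ErbB4 ligand gene Nrg4 at 10.3 and 7.13 CPM in the Zeb1 MSKO libraries and 53.7 and 20.7 CPM in the control libraries.

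**Figure D4:**
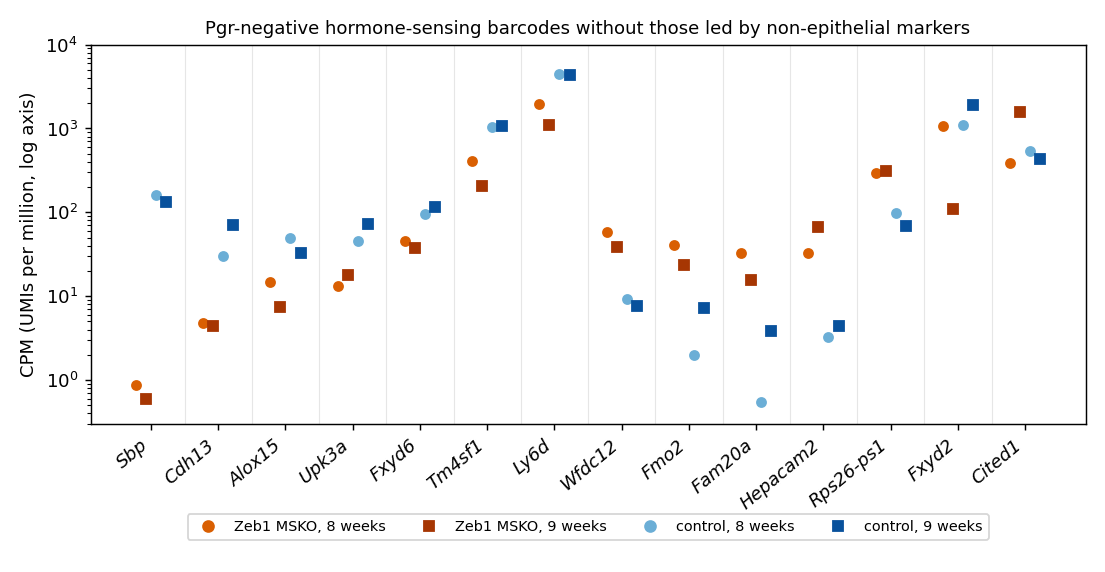
CPM (log axis) per library in epithelial Pgr-negative barcodes for 12 genes that edgeR or DESeq2 called between genotypes, and for Fxyd2 and Cited1, which neither called; orange points are Zeb1 MSKO, blue points control, circles 8 and squares 9 weeks. The groups do not overlap for the 12 called genes, nor for Fxyd2, which lies lower in Zeb1 MSKO. With all Pgr-negative barcodes, 10.7% of genes tested did not overlap with Zeb1 MSKO higher and 17.7% with it lower. For Fxyd2 and Cited1 the Zeb1 MSKO library at 9 weeks lies far from the other libraries.

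Zeb1 is known to bind the E-box CACCTG, whose reverse complement is CAGGTG. The 250 bases before the start of a RefSeq transcript are printed for Sbp, Wfdc12 and Hepacam2, a choice made after their values were seen, to show where that motif lies. They are from GRCm38.p6, the assembly of mm10, 5′ to 3′ on the gene's strand, with the motif in capitals. Both strings were searched, which read each site on both strands, and 5657 of 32851 RefSeq promoters of this length (17.2%) hold 1 or more.
Sbp, chr17:23941428-23941677, plus strand: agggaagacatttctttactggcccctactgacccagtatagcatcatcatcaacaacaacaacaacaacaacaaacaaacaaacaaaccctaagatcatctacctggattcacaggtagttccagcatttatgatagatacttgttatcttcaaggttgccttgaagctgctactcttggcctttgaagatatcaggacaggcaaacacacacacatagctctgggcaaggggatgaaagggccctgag
Wfdc12, chr2:164190559-164190808, minus strand: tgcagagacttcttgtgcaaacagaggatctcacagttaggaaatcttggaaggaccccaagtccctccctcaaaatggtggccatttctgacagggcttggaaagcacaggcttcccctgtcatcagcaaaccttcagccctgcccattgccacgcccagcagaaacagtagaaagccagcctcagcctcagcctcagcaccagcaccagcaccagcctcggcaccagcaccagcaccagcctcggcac
Hepacam2, chr6:3494499-3494748, minus strand: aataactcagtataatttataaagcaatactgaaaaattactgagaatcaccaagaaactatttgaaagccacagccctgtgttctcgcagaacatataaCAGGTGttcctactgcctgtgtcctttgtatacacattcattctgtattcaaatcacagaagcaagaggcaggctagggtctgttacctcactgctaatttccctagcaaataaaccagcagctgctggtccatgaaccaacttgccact
The Hepacam2 stretch holds 1 match, starting 150 bases before the start, and the other 2 hold none. RefSeq lists 3 starts for Sbp, of which 1 has a match in its window. For Hepacam2, Wfdc12 and Sbp, the annotated 5′ end in GENCODE lies further upstream than the RefSeq start used. The Hepacam2 stretch thus lies wholly inside the annotated gene, and the Wfdc12 and Sbp stretches lie inside theirs in part. A match is a run of letters and no measurement of binding.

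Gene lists of known function were counted between genotypes, beside all 10991 genes, of which 21.8% were higher and 30.9% lower in Zeb1 MSKO at both ages, with a median log2 fold change of 0.03. Besides Sbp, edgeR called no member of any list. Of 11 MHC antigen presentation genes tested, 0 were higher and 8 lower at both ages, with a median of -0.45 (0, 7 and -0.30 in the epithelial barcodes), such as H2-D1 (-0.56) and the immunoproteasome subunit Psmb8 (-0.84). The invariant chain gene Cd74, also a leukocyte marker, was at -2.51, but at 0.56 in the epithelial barcodes. Of 14 luminal keratin and junction genes, 1 was higher and 7 lower, with a median of -0.23, among them E-cadherin (Cdh1, -0.25) and the claudin Cldn4 (-0.83). Among 16 ion pump regulators and channels 1 was higher and 9 lower, with a median of -0.28, or 1 and 9 of 14 with a median of -0.56 in the epithelial barcodes. The median ratio of this list was -0.21 at 8 weeks and -0.86 at 9 weeks (-0.14 and -1.10 in the epithelial barcodes), and a member was the sodium-potassium-chloride transporter Slc12a2 (fold change -0.88 on the log2 scale). Of 15 estrogen and progesterone response genes, 3 were higher and 2 lower, with a median of 0.31. The 18 lineage transcription factors tested held 6 higher and 4 lower, with a median of 0.13.

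Of 20 immediate early and dissociation response genes, 10 were higher and 3 lower, with a median of 0.36, and of 16 interferon response genes 8 were higher and 2 lower, with a median of 0.62, or 6 and 4 of 15 with a median of 0.20 in the epithelial barcodes. The interferon median was 0.81 at 8 weeks and 0.0016 at 9 weeks (0.15 and 0.05 in the epithelial barcodes). Of 13 contractile genes of basal cells, 10 were higher and 1 lower in Zeb1 MSKO, with a median of 0.89, from low levels such as 27.8 and 20.0 CPM in the Zeb1 MSKO libraries and 15.4 and 15.1 CPM in the control libraries for Tagln. The contractile median was 1.24 at 8 weeks and 0.40 at 9 weeks. Zeb1 MSKO libraries also held more basal barcodes, 4682 and 2391, against 1757 and 2097 in control, and the part of their RNA in these values was not tested. Of 14 milk and secretory genes, 9 were higher and 1 lower, with a median of 0.65, and of 18 S-phase genes 13 were higher and 1 lower, with a median of 0.59, for example the helicase subunit Mcm3 (1.53). The S-phase median was 0.27 at 8 weeks and 0.79 at 9 weeks. Each median not given by age is of edgeR log2 fold changes over the listed genes that passed the filter on low counts.

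Whether the genotype difference was itself different in Pgr-negative barcodes was tested as an interaction. Against Pgr-positive barcodes, edgeR called 6 of 13095 genes (0.0458%), and single barcodes held much of their counts. Jchain, the joining chain of secreted antibodies, had 2992 of the 4620 UMIs of the control library at 8 weeks in 1 Pgr-negative barcode, and Ly6c2 1096 of 1118 in 1. Glycam1, a mucin-like milk glycoprotein, had 3703 of 3984 UMIs in 1 Pgr-positive barcode of the same library. Ctla2a had 42 of 44 Pgr-negative UMIs of Zeb1 MSKO at 8 weeks in 1 barcode. The remaining genes were Gm4847, with 82, 8, 0 and 43 UMIs from 7, 2, 0 and 2 Pgr-negative barcodes, and S100g, a calcium-binding protein, with 16, 18, 3 and 2 UMIs. With the epithelial barcodes 29 of 12784 genes were called (0.227%). For Sbp, Hepacam2, Wfdc12, Cdh13 and Ly6d the interaction was -0.59, -0.21, -0.81, -0.06 and -0.0026 on the log2 scale (edgeR adjusted p = 1 each). Against basal barcodes 0 of 13670 genes were called (0.0%; 255 at an unadjusted p under 0.05), and against progenitor barcodes 0 of 13348 (0.0%; 429). Within Pgr-positive, basal and progenitor barcodes edgeR called 0 genes between genotypes each (362, 68 and 188 at an unadjusted p under 0.05).

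Age was the second factor. At 9 against 8 weeks edgeR called 238 of 10991 genes (2.17%), 2 higher (0.0182%) and 236 lower (2.15%), and with the epithelial barcodes 32 of 10599 (0.302%), all lower. The summed fibroblast markers were at 80.8 and 134 CPM at 9 weeks, against 3159 and 1228 CPM at 8 weeks, and at 22.4 and 21.8 against 326 and 88.2 CPM in the epithelial barcodes. Each age has 1 library per genotype, so age and library preparation cannot be told apart. Without 1 library the 238 calls became 37 and 1 (Zeb1 MSKO at 8 or 9 weeks) and 252 and 88 (control at 8 or 9 weeks), while in the epithelial barcodes 30 genes, 7 higher and 23 lower, were called without control at 9 weeks and 0 without any other library. With 3 libraries the genotype term could not be kept, so these fits compare the ages alone and take 1 lone library to vary like the other age. With all 4 libraries and no genotype term, 207 genes were called.

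Among the 32 genes, several encode transcription factors or signalling proteins. Cebpb, a factor of mammary differentiation, was at 3.06 and 2.19 CPM at 9 weeks, against 284 and 129 CPM at 8 weeks, in Zeb1 MSKO and control in that order (log2 fold change -6.23, SE 0.29, edgeR adjusted p = 0.00887). It had a UMI in 4.25% and 2.74% of Pgr-negative barcodes at 9 weeks, against 85.3% and 59.2% at 8 weeks. In basal barcodes Cebpb was at 23.6 and 29.1 CPM at 9 weeks, against 2928 and 2049.8 CPM at 8 weeks. Tmem158, a membrane protein, was at 46.6 and 64.7 CPM at 9 weeks, against 358 and 515 CPM at 8 weeks (log2 fold change -2.93, SE 0.22, edgeR adjusted p = 0.023). Akirin2, a nuclear protein, was at 9.83 and 12.3 CPM at 9 weeks, against 89.3 and 115 CPM at 8 weeks. The homeobox factor Irx2, the Krüppel-like factor Klf2, the kinase subunit Prkaca, the small GTPase Hras and the phosphatase Dusp1 had log2 fold changes of -1.88, -2.28, -2.22, -2.16 and -1.80.

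Inflammatory mediators and matrix genes made up a further share. The chemokine genes Ccl2 and Ccl7 were at 0.586 and 0.549 CPM at 9 weeks, against 57.0 and 69.1 CPM at 8 weeks, and at 0.391 and 0.731 CPM at 9 weeks, against 23.3 and 29.0 CPM at 8 weeks (log2 fold change -6.65, SE 0.28, edgeR adjusted p = 0.00887 for Ccl2). Col3a1, Col1a1, Col1a2, Fn1, Dpt and Clec3b, all matrix or fibroblast genes, were called too, Col3a1 at 0.521 and 0.366 CPM at 9 weeks, against 68.2 and 17.8 CPM at 8 weeks, and moved with the fibroblast marker sums given above, whose part in them was not tested. Of the 2 genes called higher with all barcodes, Ubd, a ubiquitin-like protein, was at 9.66 and 24.0 CPM at 9 weeks, against 1.52 and 2.74 CPM at 8 weeks, and Oxld1, a small protein with an oxidoreductase-like domain, at 29.4 and 28.7 CPM at 9 weeks, against 10.3 and 10.6 CPM at 8 weeks (edgeR adjusted p = 0.0323 and 0.0486). With the epithelial barcodes neither passed (edgeR adjusted p = 0.0645 and 0.0952). Of the genes of the score, none was called; Areg was at 1734 and 1215 CPM at 9 weeks, against 3436 and 4046 CPM at 8 weeks (edgeR adjusted p = 0.158).

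**Figure D5:**
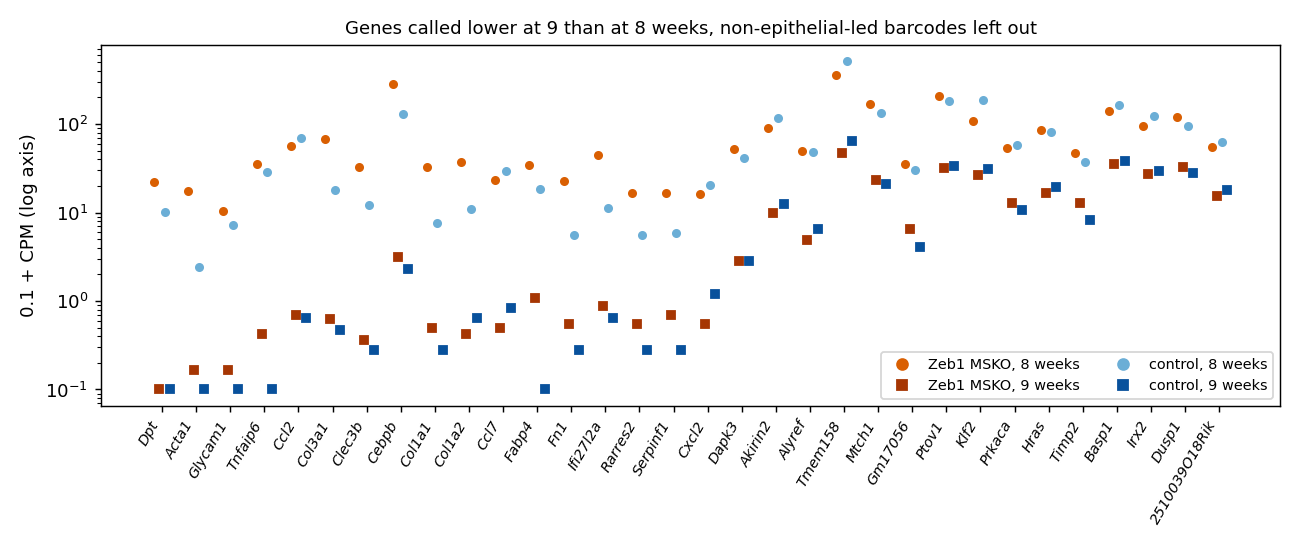
The 32 genes called lower at 9 than at 8 weeks by edgeR in epithelial Pgr-negative barcodes, as 0.1 plus CPM on a log axis, with 1 point per library, orange for Zeb1 MSKO and blue for control, circles for 8 and squares for 9 weeks. For every gene both squares lie below both circles, and Cebpb, Tmem158 and Ptov1 are among those above 100 CPM at 8 weeks.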

How the data were processed

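The 4 libraries were made with the droplet-based 10x 3′ v2 chemistry from sorted mammary gland cells. The authors deposited 1 matrix of UMI counts per gene and barcode, made with Cell Ranger 2.1.0 against mm10, per the submitters' processing notes. Libraries were told apart by barcode suffix. Scores were means over genes of log2(1 + counts per 10000), standardised over all barcodes. Counts were summed per library and class and tested with edgeR 4.0.16 (quasi-likelihood, TMM, filterByExpr, Benjamini-Hochberg, threshold 0.05) in R 4.3.3: genotype with 2 libraries against 2, age with a genotype term (1 residual degree of freedom), and class by genotype with the library as block. DESeq2 1.42.0 was an alternative. Folds between classes used a prior of 2 counts and genes at 10 CPM or more. The scripts were tested on simulated data.

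Doublets were called per library from simulated pairs at an expected rate of 8% and kept, as were barcodes under 500 genes or over 10% mitochondrial counts, with an alternative that leaves both out. The members and gene lists were chosen with earlier results of these data known, and the alternative without barcodes led by non-epithelial markers was added after the data were seen. Named genes were the called ones, those with the largest changes in the same direction at both ages (10 CPM or more; 10 each way for genotype, 5 for age) or in all 4 libraries (10 each way against Pgr-positive barcodes; 8 each way at 50 CPM or more against the others), members of the gene lists and genes of the rule, with the largest shown as examples. Genes called by DESeq2, in the interaction or without the barcodes led by non-epithelial markers were added after their values were seen. A gene that this rule names is not reported here. Whether each library is its own animal is not stated in the labels. The p-values therefore reflect variation among 4 libraries and possibly no more than technical variation. Replicate numbers stand for age, and the labels give no pairing. Intervals and limits from a count of 0 cover counting error only.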

Additional observations from a re-analysis of the deposited data

Results flagged for a closer look

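The genotype effect differed between Pgr-negative and Pgr-positive hormone-sensing barcodes for 6 genes by edgeR's interaction test. Its log2 difference was -8.26 for Gm4847, -8.05 for Jchain, -7.48 for Ly6c2, 3.85 for Glycam1, 6.42 for Ctla2a and 4.58 for S100g. As given above, single barcodes held much of the counts of these genes. Without low-quality barcodes and doublets, the same test called 2 genes.

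Another 5 measures had opposite signs of the genotype difference at the 2 ages, and the difference between ages was not tested. The log2 ratio of Zeb1 MSKO to control at 9 weeks minus that at 8 weeks was 0.75 for Areg, 2.45 for Cited1 and 1.31 for Ly6a. For the Pgr-negative share of hormone-sensing barcodes, the genotype difference at 9 weeks exceeded that at 8 weeks by 14.4 percentage points, and for the share of all classed epithelial barcodes by 9.23 percentage points.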

How the results depend on the processing

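Genotype calls in Pgr-negative barcodes, 1 with all barcodes, numbered 12 by DESeq2, 0 without low-quality barcodes and doublets, 0 with at least 8000 UMIs and 0 without any 1 library. Without barcodes led by non-epithelial markers they numbered 15 by DESeq2 and 1 to 41 without 1 library (41 and 3 without Zeb1 MSKO at 8 or 9 weeks). Age calls, 238 with all barcodes, numbered 436 by DESeq2, 695 with no filter on low counts, 514 without low-quality barcodes and doublets, 32 without barcodes led by non-epithelial markers (126 by DESeq2, 0 to 30 without 1 library) and 1 to 252 without 1 library. Interaction calls against Pgr-positive barcodes, 6, became 43 with no filter, 2 without low-quality barcodes and doublets, 29 without barcodes led by non-epithelial markers and 8 to 77 without 1 library. Against basal barcodes, 0 became 2 with no filter and 1 without barcodes led by non-epithelial markers, and against progenitor barcodes 7 with no filter and 0 to 9 without 1 library. Genes at least 2-fold apart from Pgr-positive barcodes, 43, became 18 with at least 8000 UMIs, 5 without low-quality barcodes and doublets, 1 without barcodes led by non-epithelial markers (1 with either further filter) and 25 to 55 without 1 library. Without 1 library the genotype difference in the share of hormone-sensing barcodes was -0.583 to 12.8 percentage points and that of classed barcodes -3.28 to 5.64, both negative without Zeb1 MSKO at 9 weeks. The log2 fold change of Cited1 was -0.45 without that library, -0.31 when barcodes led by non-epithelial markers were also left out, and 1.82 without Zeb1 MSKO at 8 weeks. The cause was not tested. Age fits without 1 library carry no genotype term.

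With age as a replicate block, genotype calls numbered 1. Deviations of same-age libraries from their genotype means correlated at 0.607 across 10991 genes, which are not independent, and the labels do not pair the libraries. The 2 libraries a group and, for age, 1 residual degree of freedom limit every test, and a gene read in few barcodes can be decided by 1 of them.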

Other observations

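Summed hair follicle markers were at 18.7 and 0.0648 CPM in the Zeb1 MSKO libraries and 0.171 and 0 CPM in the control libraries in Pgr-negative barcodes. The Zeb1 MSKO library at 8 weeks was highest in the other classes as well. It was at 18.1, 38.8 and 41.4 CPM in Pgr-positive, progenitor and basal barcodes, against at most 0.209, 0.204 and 12.4 CPM in the other libraries. Krt8 was at 6946 and 2391 CPM in the Zeb1 MSKO libraries and 5954 and 6582 CPM in the control libraries, lowest in the same library as Fxyd2, Ido1, Nrxn3 and Cxcl15. The summed 6 luminal markers, Krt8 among them, were lowest in that library in the other classes as well. They were at 14676 CPM in its Pgr-positive barcodes, against 26569 to 27240 CPM in the other libraries. In progenitor barcodes they were at 10122 against 14495 to 17589 CPM, and in basal barcodes at 1479 against 1997 to 2315 CPM.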
